A study of Homo sapiens with 12 samples.

Results

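Cystine uptake and glutathione genes were followed as 10 of the 60664 genes of the count table: SLC7A11, CHAC1, GCLC, GCLM, GSS, GSR, CTH, CBS, GPX4 and TXNRD1. They were chosen by their roles in cystine import, transsulfuration, and glutathione synthesis, breakdown and use. Earlier results of these data were known when they were picked, among them the log2 fold changes of CHAC1 in both cell lines and of SLC7A11 in RS4;11. The changes of these 2 genes are therefore given as values without a p, and no member's result is independent evidence. Of the 10 members 9 passed the filter on low counts and entered the tests, and CBS did not.

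TOM-1 and RS4;11 are human B-cell acute lymphoblastic leukaemia lines, both labelled wild type. TOM-1 carries the Philadelphia chromosome and RS4;11 a rearrangement of KMT2A. The treated libraries came from cells given ADI-PEG20, a pegylated arginine deiminase that converts arginine of the medium to citrulline, at 1000 ng/ml for 24 h, and the control libraries from control culture for the same time. Each line thus has a control and a treated group, and all 4 groups grew in RPMI with fetal bovine serum and antibiotics, and each has 3 libraries of poly(A) RNA. The labels do not say that the libraries came from separate cultures, so p-values measure the spread between these libraries, which may be technical.

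Cells import cystine in exchange for glutamate through system xc-, made of the light chain SLC7A11 and the heavy chain SLC3A2, and reduce it to cysteine. Cysteine can also be made from homocysteine by CBS and CTH, the enzymes of transsulfuration. Glutamate-cysteine ligase (catalytic subunit GCLC, modifier GCLM) joins cysteine to glutamate, and glutathione synthetase (GSS) adds glycine to give glutathione. CHAC1 breaks glutathione down inside the cell. Glutathione reductase (GSR) recycles the oxidised form, GPX4 spends glutathione to reduce lipid peroxides, and thioredoxin reductase 1 (TXNRD1) serves the parallel thioredoxin system.

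Total counts ran from 18958144 to 35956959 per library. TOM-1 control replicate 3 stood apart: 14963 genes had a read there, where every other library had 19857 to 21997, and ribosomal protein genes took 19.7% of its counts, against 5.91% to 9.89%. Results are given with and without it. Of 12 B-lineage markers, all were at 1 CPM or more in TOM-1 and 11 in RS4;11. HOXA9, HOXA10 and MEIS1, markers of KMT2A-rearranged leukaemia, had 0 counts in TOM-1 and were above 1 CPM in RS4;11. Of 6 T-cell markers only TRAC reached 1 CPM and it carried nearly all of the list's sum (123 to 210 CPM in TOM-1, 424 to 480 in RS4;11), while CD3G had 0 counts in every library. Summed monocyte and granulocyte markers ran from 10.2 to 26.7 CPM, erythroid markers reached 0.496 CPM at most, and stromal markers ran from 2.70 to 11.5 CPM in TOM-1 and from 32.5 to 46.0 CPM in RS4;11, with COL1A2, COL3A1 and DCN at 0. In bulk RNA, fewer cells of a kind and less RNA per cell cannot be told apart.

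The promoter table from RefSeq (GRCh38.p14) held 7 of the 10 members: CHAC1, GCLC, GCLM, CTH, CBS, GPX4 and TXNRD1. The 250 bases before each gene start were searched on both strands for TGATGNAA, the core of the amino acid response element read by ATF4 and C/EBP partners, and for TGACNNNGC, the core of the antioxidant response element read by NRF2. The amino acid response core was found in CHAC1 alone of these 7, and in 3.14% of 35116 promoter windows of the same length. The antioxidant response core was found before starts of GCLM, TXNRD1 and CBS, and in 10.9% of windows. TXNRD1, GPX4 and CBS had several starts and so several windows each, and CBS had no match before its other starts. The number of genes with a match therefore does not compare directly with a share of windows. No member's window held both motifs. The matches are shown because CHAC1 and TXNRD1 lie at opposite ends of the members' changes in TOM-1 without replicate 3. GCLM, which holds the antioxidant core as TXNRD1 does, changed by 0.23 in that fit, short of the threshold. Over all 12 libraries the lowest value was that of CTH (-0.68), not of TXNRD1 (-0.31). The change of CHAC1 was known when it was picked. SLC7A11, GSS and GSR were not searched, and any link between motif and change was not tested. Each is printed 5′ to 3′ on the gene's strand with the matching bases in capitals; a match on the opposite strand shows as the reverse complement.
CHAC1, chr15:40953251-40953280, plus strand: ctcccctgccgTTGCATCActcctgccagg
GCLM, chr1:93909446-93909474, minus strand: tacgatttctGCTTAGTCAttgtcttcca
TXNRD1, chr12:104215670-104215698, plus strand: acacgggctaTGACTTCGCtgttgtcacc
TXNRD1, chr12:104286920-104286948, plus strand: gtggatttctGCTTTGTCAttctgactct
CBS, chr21:43076442-43076470, minus strand: ccggctctggGCGCGGTCAcgcggggcgc

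The CHAC1 match began 209 bases before the RefSeq start, the GCLM match 34, the TXNRD1 matches 99 and 102 before different starts, and the CBS match 83. In GENCODE release 29 the CHAC1 stretch and the later TXNRD1 stretch lie in noncoding exonic sequence of transcripts that start further upstream, the CBS stretch lies in an intron, the first TXNRD1 stretch lies upstream of the gene, and 11 bases of the GCLM stretch lie in its first exon. A match is a description of letters in a window, not of a bound site.

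SLC7A11 (ENSG00000151012, chromosome 4, 138164097 to 138242349, minus strand, GENCODE release 29 on GRCh38), the transporter of system xc-, was higher under ADI-PEG20 in every TOM-1 library. TOM-1 control replicates 1, 2 and 3 stood at 46.0, 46.3 and 11.0 CPM, read counts scaled to a common library size with TMM, and the treated libraries at 135, 138 and 138 CPM. The treated libraries all lay above the controls, among which replicate 3 was far lower than the other two. The log2 fold change was 1.98 (SE 0.39) over all 12 libraries, a 3.96-fold difference, and 1.57 (SE 0.10) without TOM-1 control replicate 3, a 2.96-fold difference. In RS4;11 the controls stood at 15.2, 15.7 and 12.5 CPM and the treated libraries at 25.3, 23.3 and 20.2 CPM, again without overlap. That change was 0.66 (SE 0.38), and 0.66 with a smaller SE of 0.10 without the departing TOM-1 library, which had entered the shared estimate of the spread. In GENCODE 8.97% of the exonic bases of SLC7A11 are shared with the antisense gene SLC7A11-AS1, and the use of strand in counting is not given in the sources used here.

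The heavy chain SLC3A2 rose in TOM-1 and did not pass the threshold in RS4;11. Its TOM-1 controls stood at 364, 369 and 701 CPM and the treated libraries at 1061, 1050.5 and 976 CPM, again with no overlap. SLC3A2 rose by 1.11 on the log2 scale (SE 0.21, edgeR adjusted p = 0.00204), and by 1.49 (SE 0.06, adjusted p = 2.66e-14) without TOM-1 control replicate 3. In RS4;11 it ran from 241 to 257 CPM in control and from 229 to 243 CPM when treated, a log2 difference of -0.06 (SE 0.05, edgeR without that library). Its change in TOM-1 exceeded that in RS4;11 by 1.16 (SE 0.29, edgeR adjusted p = 0.0253) over all libraries and by 1.54 without replicate 3. That call was lost without any 1 of the treated TOM-1 libraries or of the RS4;11 libraries (edgeR adjusted p 0.0586 to 0.0803). Per exonic length (TPM, transcript abundance scaled to a common total), SLC3A2 was 14.8 times SLC7A11 in TOM-1 control, leaving out replicate 3, and 14.0 times in treated TOM-1. The ratio was 31.8 in RS4;11 control and 19.3 under ADI-PEG20. Its size depends on the lengths used, the union of all annotated exons of each gene.

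**Figure D1:**
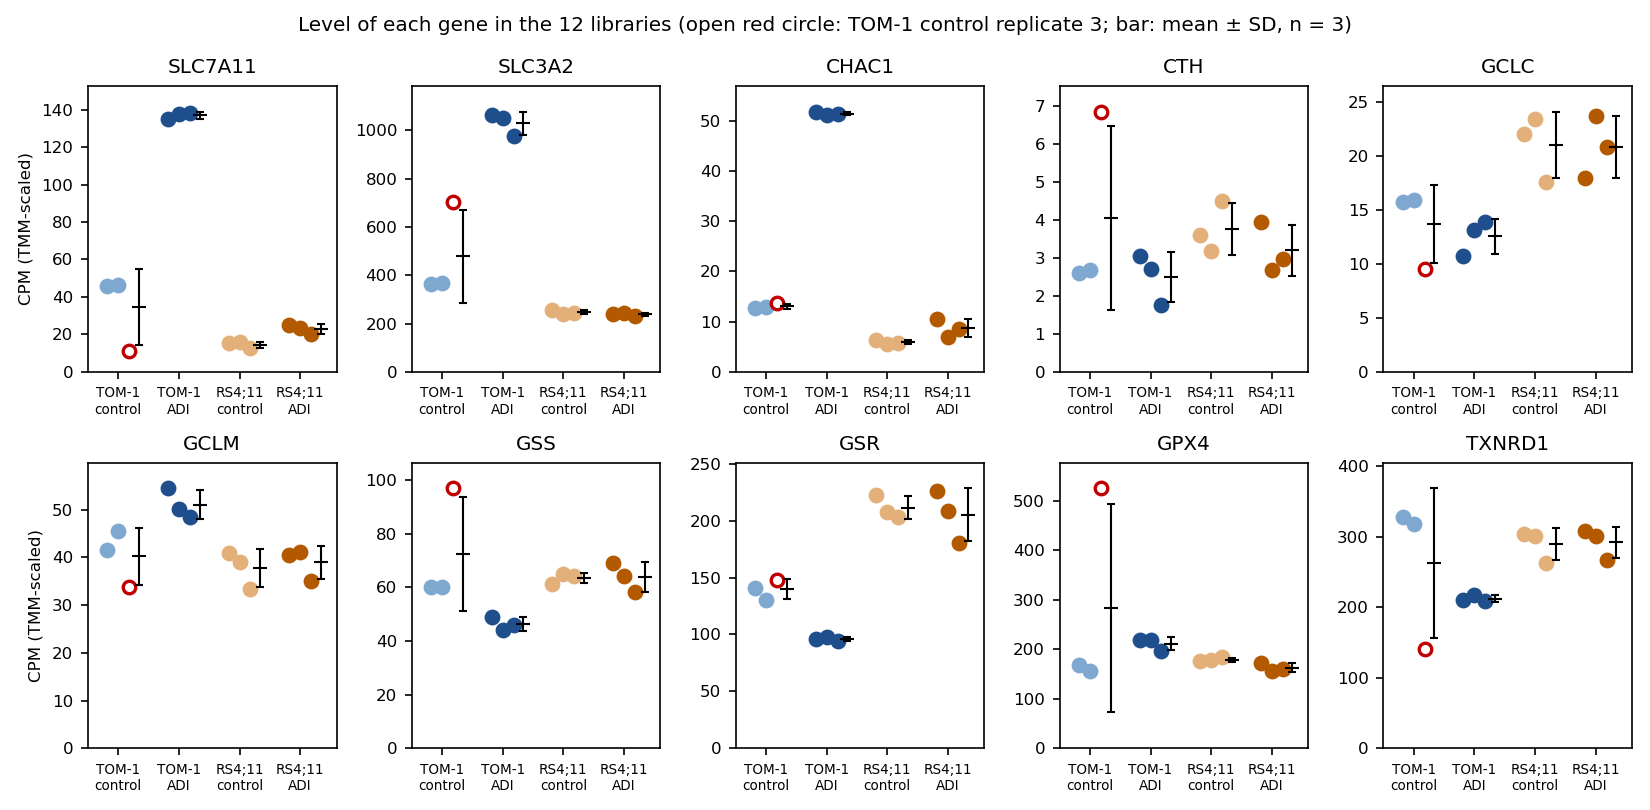
Level of 9 members and of SLC3A2 in each library, as CPM scaled by TMM on a linear axis from 0, with points for the 3 libraries of each group (ADI marks ADI-PEG20) and a bar for mean ± SD (n = 3). The treated TOM-1 libraries of SLC7A11, SLC3A2 and CHAC1 lie above all others, and the open red circle, TOM-1 control replicate 3, lies away from the other controls for SLC7A11 (11.0 CPM), GPX4 (525 CPM) and TXNRD1 (141 CPM).

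CHAC1 (ENSG00000128965, chromosome 15, 40952962 to 40956519, plus strand), the glutathione-degrading enzyme, stood at 12.7, 12.9 and 13.7 CPM in TOM-1 control and at 51.8, 51.2 and 51.4 CPM under ADI-PEG20. The values were tight within each group, and TOM-1 control replicate 3 lay near the other controls here. The log2 fold change was 1.98 (SE 0.16) over all libraries and 2.00 (SE 0.15) without that library. In RS4;11 the levels were lower: 6.35, 5.60 and 5.79 CPM in control and 10.6, 6.95 and 8.55 CPM when treated, a log2 difference of 0.56 (SE 0.16). The treated RS4;11 libraries lay above their controls but spread over a wider range than the gap between the groups. The effect in TOM-1 exceeded that in RS4;11 by 1.42 (SE 0.22), and by 1.44 (SE 0.20) without the departing library.

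Of the transsulfuration enzymes, CTH (ENSG00000116761, chromosome 1, 70411218 to 70439851, plus strand) was low throughout and the counts assigned to CBS were near or at 0. CTH stood at 2.61, 2.69 and 6.84 CPM in TOM-1 control and 3.04, 2.71 and 1.77 CPM when treated. Its groups overlapped with and without replicate 3, and the change was -0.68 (SE 0.40, edgeR adjusted p = 0.228) over all libraries and -0.09 (SE 0.34, adjusted p = 0.905) without it. In RS4;11 CTH ran from 3.17 to 4.50 CPM in control and from 2.67 to 3.95 CPM when treated, with a log2 difference of -0.23 (SE 0.40, edgeR adjusted p = 1). CTH had 45 to 124 counts per library.

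CBS (ENSG00000160200, chromosome 21, 43053191 to 43076943, minus strand) had 0 counts in every library of TOM-1 control and of both RS4;11 groups, and 3, 4 and 6 counts in treated TOM-1. A count of 0 allows up to 3 counts in a library. The treated mean of 0.172 CPM was 1.41 times the mean of those floors in TOM-1 control, and 1.70 times it leaving out TOM-1 control replicate 3. The treated counts carry counting error of their own, and 3 counts are no more than a count of 0 allows. These ratios are therefore not a lower bound on a change. CBS did not pass the filter on low counts and was not tested, and its near-identical copy CBSL (ENSG00000274276) had 4 and 5 counts in RS4;11 control replicates 2 and 3 and 0 counts elsewhere. How reads that fit both copies were counted, or whether they were counted at all, is not given. The split between the copies is therefore uncertain, and counts of 0 do not show that either gene was silent.

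Of the genes for glutathione synthesis, GSS fell in TOM-1 on the TMM scale, while GCLC and GCLM did not pass the threshold in either fit. GCLC (ENSG00000001084, chromosome 6, 53497341 to 53616970, minus strand) stood at 15.7, 15.9 and 9.55 CPM in TOM-1 control and at 10.7, 13.1 and 13.8 CPM when treated. The groups overlapped only through replicate 3, and the log2 difference was -0.13 (SE 0.21, edgeR adjusted p = 0.709), or -0.33 (SE 0.16, adjusted p = 0.107) without it. GCLM (ENSG00000023909, chromosome 1, 93885205 to 93909456, minus strand) stood at 41.4, 45.6 and 33.8 CPM in TOM-1 control and 54.4, 50.1 and 48.5 CPM when treated. All 3 treated libraries lay above the controls, with a log2 difference of 0.34 (SE 0.14, edgeR adjusted p = 0.0876), and 0.23 (SE 0.11, adjusted p = 0.095) without replicate 3. In TPM GCLM stood at 28.8, 32.0 and 16.1 in control and at 45.4, 41.6 and 40.9 when treated, a wider gap than in CPM. In GENCODE 6.12% of the exonic bases of GCLC are shared with AL033397.1 on the same strand.

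GSS (ENSG00000100983, chromosome 20, 34928433 to 34956027, minus strand) stood at 60.1, 60.3 and 96.9 CPM in TOM-1 control and at 49.1, 44.2 and 45.9 CPM under ADI-PEG20. Every treated library lay below every control. With TMM scaling GSS fell by 0.64 on the log2 scale (SE 0.17, edgeR adjusted p = 0.0147), and by 0.38 (SE 0.09, adjusted p = 0.00118) without TOM-1 control replicate 3. In TPM the TOM-1 groups did not overlap either, but the gap was much narrower. Control replicates 1, 2 and 3 stood at 36.7, 37.2 and 40.6 TPM, and the treated libraries at 36.02, 32.2 and 34.04 TPM. Leaving out replicate 3, the control mean was 36.9 TPM, against 34.1 TPM when treated. The size of the fall thus depended on the scaling, and the TPM values were not tested. The GSS call was lost without treated TOM-1 replicate 2 (edgeR adjusted p = 0.0534), and when the 6 TOM-1 libraries were fitted alone (adjusted p = 0.0895). In RS4;11 none of these 3 genes passed: GCLC changed by -0.02 (SE 0.21), GCLM by 0.04 (SE 0.14) and GSS by 0.01 (SE 0.17), each with overlapping groups and an edgeR adjusted p of 1.

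The modifier GCLM stood above the catalytic GCLC in every group, in CPM and per exonic length. Per exonic length, GCLM over GCLC was 4.40 in TOM-1 control, leaving out replicate 3, and 6.47 in treated TOM-1. In RS4;11 it was 2.87 in control and 2.99 when treated. These ratios are quotients of group means and carry no test, and their size depends on the union of annotated exons used as length.

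GSR, GPX4 and TXNRD1, which recycle glutathione or reduce peroxides and thioredoxin, were among the more abundant members. GSR (ENSG00000104687, chromosome 8, 30678061 to 30727999, minus strand) stood at 141, 130.3 and 148 CPM in TOM-1 control and at 95.6, 97.6 and 94.1 CPM under ADI-PEG20, without overlap. In TPM control replicates 1 and 2 (141 and 132) lay above the treated libraries (115, 117 and 115), and replicate 3 (102) lay below them. GSR fell by 0.54 on the log2 scale (SE 0.11, edgeR adjusted p = 0.0034), and by 0.50 (SE 0.08, adjusted p = 2e-05) without replicate 3. In RS4;11 GSR overlapped between control (203 to 222 CPM) and treated libraries (180.3 to 226 CPM), with a change of -0.04 (SE 0.11, edgeR adjusted p = 1).

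GPX4 and TXNRD1 were the members whose result in TOM-1 turned on TOM-1 control replicate 3. GPX4 (ENSG00000167468, chromosome 19, 1103926 to 1106791, plus strand) stood at 169, 157 and 525 CPM in TOM-1 control and 219, 219 and 197 CPM when treated. The treated libraries lay above replicates 1 and 2 and far below replicate 3. The change of GPX4 was -0.42 (SE 0.35, edgeR adjusted p = 0.412) over all libraries and turned to 0.38 (SE 0.07, adjusted p = 0.000115) without that library. TXNRD1 (ENSG00000198431, chromosome 12, 104215779 to 104350305, plus strand) stood at 329, 319 and 141 CPM in TOM-1 control and 211, 218 and 209 CPM when treated, so the treated libraries lay between replicate 3 and the other controls. TXNRD1 differed by -0.31 (SE 0.24, edgeR adjusted p = 0.378) over all libraries and fell by 0.61 (SE 0.07, adjusted p = 3.07e-07) without that library. In RS4;11 TXNRD1 overlapped between groups (263 to 304 and 268 to 308 CPM, change 0.01, SE 0.24). GPX4 stood at 176, 178 and 184 CPM in RS4;11 control and at 172, 156 and 161 CPM when treated, lower without overlap but not past the threshold (log2 change -0.14, edgeR adjusted p = 1, and 0.369 without TOM-1 control replicate 3).

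**Figure D2:**
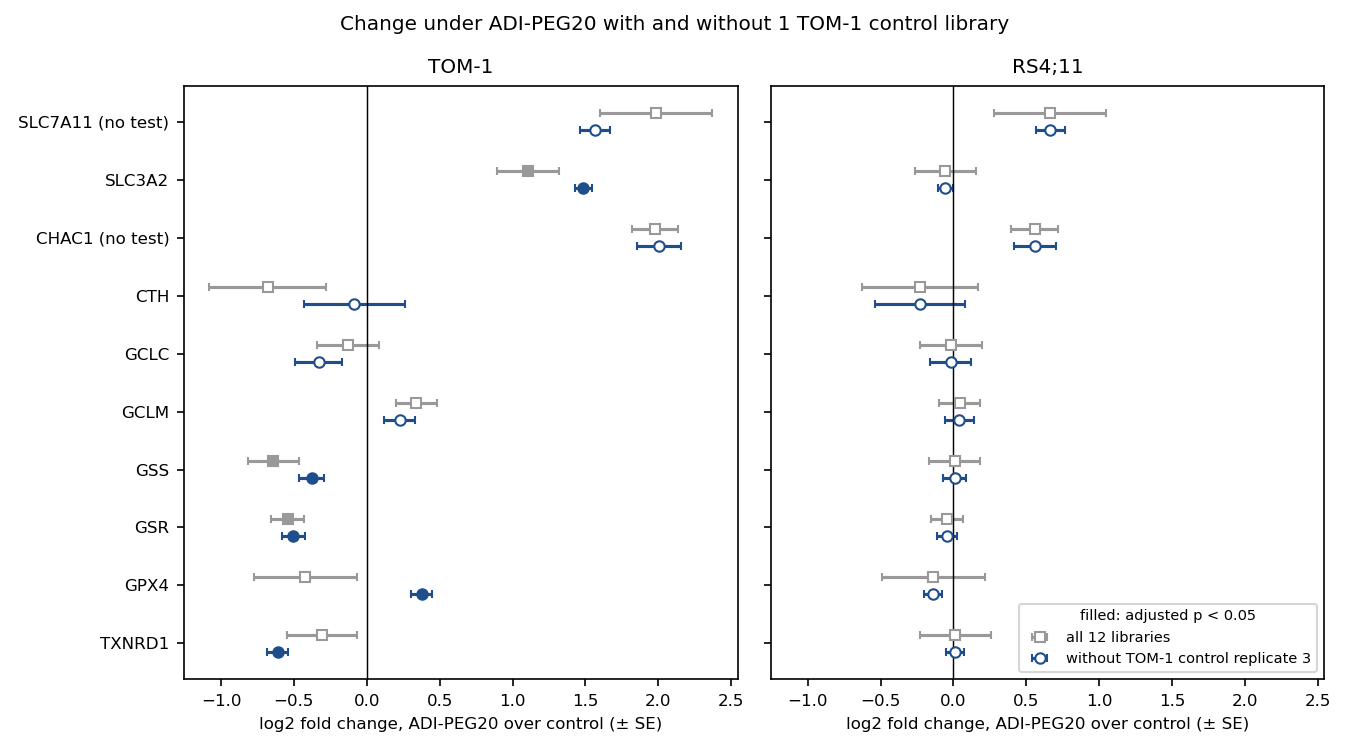
Log2 fold change of each gene under ADI-PEG20 (x axis, ± SE of the edgeR fit) in TOM-1 and in RS4;11, over all 12 libraries (squares) and without TOM-1 control replicate 3 (circles); filled symbols passed an adjusted p of 0.05, and SLC7A11 and CHAC1 are drawn open, with no test. In TOM-1 GPX4 moves from -0.42 to 0.38 between the fits, and in RS4;11 none of the tested genes drawn is filled in either fit.

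In TOM-1 control replicate 3 the members departed from the other controls in both directions. Its CPM over the mean of replicates 1 and 2 was 3.23 for GPX4, 2.58 for CTH and 1.61 for GSS. It was 1.09 for GSR and 1.07 for CHAC1. It was 0.776 for GCLM, 0.605 for GCLC, 0.435 for TXNRD1 and 0.239 for SLC7A11. GPX4 and CTH, with exonic lengths of 2.02 and 2.41 kb, were among the shortest members, and SLC7A11 and GCLC, with 9.65 and 8.65 kb, the longest. CHAC1, at 2.06 kb, was also short but close to 1, and GSS, at 6.17 kb, was above 1. Exonic length here is the union of all annotated exons, which can differ from the length of the transcript expressed. The part of transcript length in these values was not tested.

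**Figure D3:**
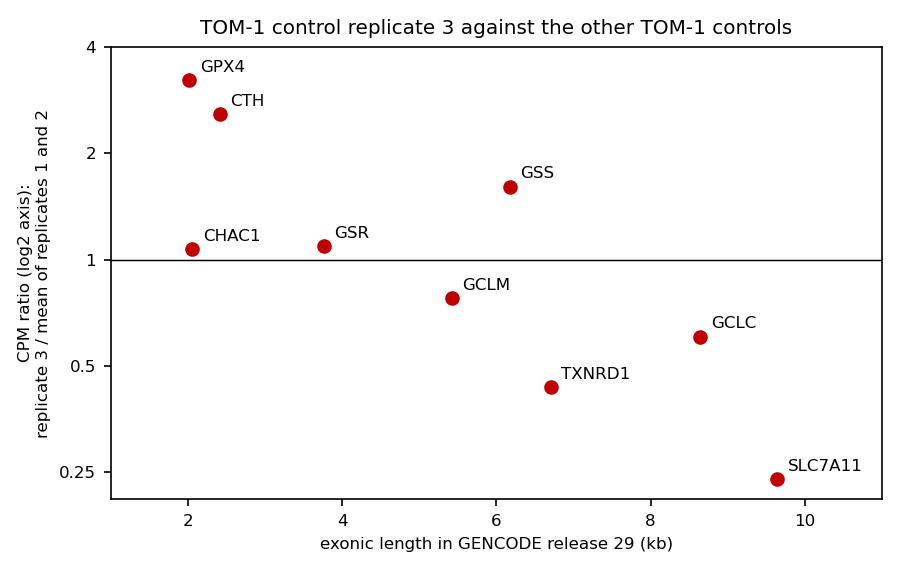
CPM in TOM-1 control replicate 3 divided by the mean of TOM-1 control replicates 1 and 2 (y axis, log2 scale) against exonic length in kb (x axis, union of all annotated exons), 1 point for each of the 9 tested members. SLC7A11, the longest, lies at 0.239 and GPX4, the shortest, at 3.23, while CHAC1 lies near 1.

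Counts of members past the threshold (edgeR, adjusted p under 0.05) leave out SLC7A11 and CHAC1 and so cover 7 members. In TOM-1 over all 12 libraries 2 of them passed, GSS and GSR, both lower, where 31.9% of all 17349 tested genes passed, 15.9% higher and 15.9% lower. Without TOM-1 control replicate 3, 4 passed (GPX4 higher, GSS, GSR and TXNRD1 lower), where 41.6% of 18321 genes did, 21.8% higher and 19.8% lower. Earlier results of these data were known when the members were picked, and nothing is read from these shares. As a description, the median log2 change of the 9 members with a fitted value, SLC7A11 and CHAC1 included, was -0.31, against 0.05 over all genes, and -0.09 against 0.00 without that library.

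In RS4;11, 0 of these 7 members passed in edgeR over all 12 libraries, where 0% of all genes did. DESeq2 and voom called 0 too, but the share of all genes they called is not given, so nothing is read from that. At an edgeR unadjusted p under 0.05 stood 0 of the 7 members and 1.87% of all genes. Without TOM-1 control replicate 3, 0 passed, where 0.317% of genes did. GPX4 then stood at an edgeR unadjusted p under 0.05, with no share of all genes given at that level for that fit. Over all 12 libraries the groups did not overlap for 1 of the 7 members (GPX4, lower), where they did not for 16.8% of genes. SLC7A11 and CHAC1, left out of that count because their changes were known, were higher without overlap.

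The edgeR test of whether the effect of ADI-PEG20 differed between the lines was passed by 0 of the 7 members over all 12 libraries, where 11.9% of genes passed it. The difference was -0.50 for GSR (SE 0.16, edgeR adjusted p = 0.0601) and -0.65 for GSS (SE 0.25, adjusted p = 0.107). DESeq2 called 1 member, GSR, and the share of all genes it called is not given. Without TOM-1 control replicate 3, 4 of the 7 passed, where 30.4% of genes did. GPX4 (0.51, SE 0.09, edgeR adjusted p = 0.000166) then had a higher effect in TOM-1. TXNRD1 (-0.62, SE 0.10, edgeR adjusted p = 2.76e-05), GSR (-0.46, SE 0.11, adjusted p = 0.00197) and GSS (-0.39, SE 0.12, adjusted p = 0.0151) had a lower effect. For SLC7A11 the difference was 1.32 (SE 0.54) over all 12 libraries and 0.90 (SE 0.14) without that library, given with no test. Over all 12 libraries it was -0.28 (SE 0.50, edgeR adjusted p = 0.792) for GPX4, and -0.32 (SE 0.34, adjusted p = 0.615) for TXNRD1. The difference for GCLC, GCLM and CTH did not pass in either fit, at -0.31 (SE 0.21), 0.19 (SE 0.14) and 0.14 (SE 0.46) without that library.

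Between the control cultures, GSR and GCLC were lower in TOM-1 than in RS4;11. SLC7A11 and CHAC1, given with no test, had log2 differences of 1.26 (SE 0.38) and 1.15 (SE 0.16). The log2 difference was -0.60 for GSR (SE 0.11, edgeR adjusted p = 0.00126) and -0.61 for GCLC (SE 0.21, adjusted p = 0.042). GSR and GCLC were 2 of 7 members, where 34.7% of genes passed, and both passed without TOM-1 control replicate 3, where 52.8% of genes did. The difference of SLC7A11 was then 1.67 (SE 0.10). The GCLC call was lost without RS4;11 control replicate 1 or 2, RS4;11 ADI-PEG20 replicate 1, or TOM-1 ADI-PEG20 replicate 2 or 3 (edgeR adjusted p up to 0.12).

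Between the treated cultures GCLM was higher in TOM-1 than in RS4;11, and GSR, GCLC and GSS were lower. SLC7A11 and CHAC1, given with no test, had log2 differences of 2.58 (SE 0.40) and 2.56 (SE 0.16), or 5.97-fold and 5.91-fold. The log2 difference was -1.10 for GSR (SE 0.11, edgeR adjusted p = 8.01e-06). It was 0.39 for GCLM (SE 0.14, adjusted p = 0.0394), -0.73 for GCLC (SE 0.21, adjusted p = 0.0143) and -0.46 for GSS (SE 0.17, adjusted p = 0.0451). These 4 of 7 members passed where 47.2% of genes did. Without TOM-1 control replicate 3, which is in neither group but enters the spread, 6 of the 7 passed, all but CTH, where 62.9% of genes did. GPX4 (0.37, SE 0.06, adjusted p = 1.8e-05) and TXNRD1 (-0.47, SE 0.06, adjusted p = 1.59e-06) were the members added. The GCLM call held in 1 of the 12 leave-one-out fits, the one without TOM-1 control replicate 3; the GSS call was lost in 5 of those fits and the GCLC call in 1, without TOM-1 ADI-PEG20 replicate 1.

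Ordered by level, SLC7A11 was highest in treated TOM-1 (137 ± 1.83 CPM, SD, n = 3), then TOM-1 control (46.2 CPM in replicates 1 and 2), treated RS4;11 (22.9 ± 2.57) and RS4;11 control (14.5 ± 1.73). No neighbours in that order overlapped once TOM-1 control replicate 3 was left out; with it, TOM-1 control and treated RS4;11 did. CHAC1 kept the same order, at 51.5 ± 0.289, 13.1 ± 0.514, 8.69 ± 1.81 and 5.91 ± 0.391 CPM (SD, n = 3), with no overlap between neighbours in all 12 libraries. GSR had the opposite order of lines: RS4;11 control (203 to 222 CPM) and treated RS4;11 (205 ± 23.3 CPM, SD, n = 3) overlapped, and TOM-1 control (139.6 ± 8.78 CPM) and treated TOM-1 (95.8 ± 1.76 CPM) followed. For GCLC the 2 RS4;11 groups overlapped at 21.0 ± 3.04 and 20.8 ± 2.88 CPM (SD, n = 3), above both TOM-1 groups.

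Levels per exonic length compare members only roughly. The length is the union of all annotated exons, which can exceed that of the transcripts expressed by a different factor in each gene. In TOM-1 control, leaving out replicate 3, GPX4 stood at 305 TPM, TXNRD1 at 183 TPM and GSR at 136 TPM. GSS (36.9 TPM), GCLM (30.4 TPM), CHAC1 (23.5 TPM) and SLC7A11 (18.1 TPM) lay in the middle, and GCLC (6.91 TPM) and CTH (4.16 TPM) were lowest of those tested. In treated TOM-1 CHAC1 was at 113 TPM, close to GSR at 115 TPM, and SLC7A11 was at 64.4 TPM. In RS4;11 control GPX4 (331 TPM) and GSR (209 TPM) led, and CHAC1 (10.7 TPM) and SLC7A11 (5.58 TPM) were low.

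The genes whose log2 CPM most resembled CHAC1 over the 11 libraries without TOM-1 control replicate 3 were APOL6, SEL1L, ERLIN2, CEP57 and ARID4B, with Pearson's r from 0.992 to 0.994 among 10402 genes. For SLC7A11 they were XRN1, SLC7A1, SPNS3, KAT6A and ATF2, with r from 0.995 to 0.998. SLC7A1 is the cationic amino acid transporter that imports arginine. These libraries fall into 4 groups and the genes were picked as the highest of many, so the coefficients describe the lists only.

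Around the members, 178 other genes of the pathway in 8 lists were counted, of which 146 were tested. In TOM-1, 26 rose and 44 fell over all 12 libraries, where 15.9% of all genes were called higher and 15.9% lower. Without TOM-1 control replicate 3, 45 of 149 rose and 50 fell, where 21.8% and 19.8% of all genes did. The counts of each list are to be read against the same shares. Their median log2 change was then -0.00, against 0.00 over all genes. In RS4;11, 0 of them passed in either fit, where 0% and 0.317% of all genes did. At an edgeR unadjusted p under 0.05 stood 0 of them over all 12 libraries, where 1.87% of all genes did. Without TOM-1 control replicate 3, 26 of them did. The share over all genes at that level is not given for that fit, so nothing is read from that count. The effect differed between the lines for 37 of the other pathway genes (12 higher and 25 lower in TOM-1), where it did for 11.9% of all genes. Without that library it differed for 75, of which 35 had a higher and 40 a lower effect, where 30.4% of all genes passed. Each gene's TOM-1 change on the log2 scale is given here first over all 12 libraries and then leaving out replicate 3 of TOM-1 control, and every change called a rise or fall passed in both fits (edgeR, adjusted p under 0.05). None of these genes passed in RS4;11 in either fit. Those named were picked for the size of their TOM-1 change, except SLC3A2.

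**Figure D4:**
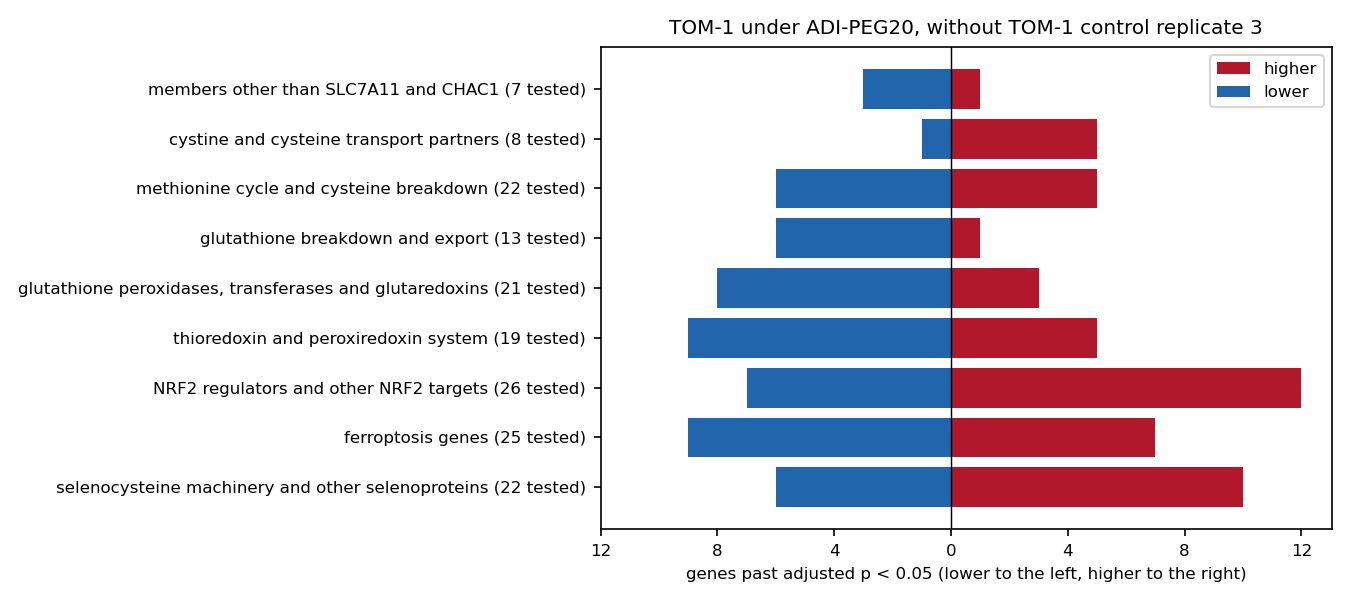
Number of genes past an edgeR adjusted p of 0.05 in TOM-1 under ADI-PEG20, without TOM-1 control replicate 3, for the 7 members other than SLC7A11 and CHAC1 and the 8 other lists; bars to the right count higher and bars to the left lower genes. The NRF2 list has 12 higher and 7 lower, and the thioredoxin and peroxiredoxin list 5 higher and 9 lower.

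Of 8 tested cystine and cysteine transport partners, 3 rose and 1 fell, and 5 rose and 1 fell without TOM-1 control replicate 3. Beside SLC3A2, SLC25A40 rose by 0.85 and 0.62. SLC25A39, a carrier of glutathione into mitochondria, fell by 2.11 and 1.64, from 149 CPM in TOM-1 control replicates 1 and 2 to 48.0 CPM when treated. SLC25A39 and SLC25A40 are close relatives, and they moved in opposite directions here.

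In the methionine cycle and cysteine breakdown list 5 of 21 rose and 7 fell, and 5 of 22 rose and 6 fell without that library. AHCY, which yields the homocysteine used by CBS, fell by 1.74 and 1.58, and MAT2A, which makes S-adenosylmethionine, fell by 1.18 and 1.52. GOT1, a cytosolic aspartate aminotransferase, rose by 2.18 and 2.34, from 37.8 CPM in TOM-1 control replicates 1 and 2 to 192 CPM. KYAT3, a transaminase of kynurenine and sulfur compounds, rose by 1.24 and 1.34. Exonic bases are shared with other genes for GOT1 (19.3%, opposite strand), MAT2A (12.4%, opposite strand) and KYAT3 (20.3%, same strand), so their counts are less certain.

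Of 13 tested genes for glutathione breakdown and export, 1 rose and 3 fell, and 1 rose and 6 fell without that library. ANPEP, an aminopeptidase, rose by 1.36 and 1.18, a call lost without TOM-1 control replicate 1, RS4;11 ADI-PEG20 replicate 2 or any 1 of the treated TOM-1 libraries (edgeR adjusted p 0.0505 to 0.0935). GGCT, which turns gamma-glutamyl amino acids into 5-oxoproline, fell by 1.19 and 0.75, and shares 27.6% of its exonic bases on the same strand. The exporter ABCC4 changed by -0.78 (edgeR adjusted p = 0.0518) over all libraries, short of the threshold, and by -1.08 (adjusted p = 3.88e-06) without TOM-1 control replicate 3.

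Glutathione peroxidases, transferases and glutaredoxins were mostly lower in TOM-1 among those that passed: 1 of 21 rose and 8 fell, and 3 rose and 8 fell without that library. The list's median was -0.48, against 0.05 over all genes, and -0.26 against 0.00. GSTP1 fell by 2.23 and 1.54, from 351 and 361 CPM in TOM-1 control replicates 1 and 2 (1020 in replicate 3) to 127, 132 and 110.5 CPM. MGST3 fell by 1.62 and 0.93. GSTM4, a cytosolic transferase with near-identical relatives, rose by 0.76 and 0.84. GLRX, a glutaredoxin, changed by 0.31 (edgeR adjusted p = 0.24) and by 0.61 (adjusted p = 1.85e-06).

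In the thioredoxin and peroxiredoxin system 1 of 19 rose and 9 fell, and 5 rose and 9 fell without that library. TXN, the thioredoxin that TXNRD1 reduces, fell by 1.94 and 1.34, from 93.0 and 89.8 CPM in TOM-1 control replicates 1 and 2 (233 in replicate 3) to 38.7, 36.9 and 32.8 CPM. PRDX4, a peroxiredoxin of the endoplasmic reticulum, fell by 2.07 and 1.51. TXNIP, the thioredoxin-binding inhibitor, rose by 2.11 and 1.97, from 52.8, 61.4 and 41.0 CPM to 229.9, 223 and 216 CPM. MSRB2 changed by 0.20 (edgeR adjusted p = 0.667) and by 0.67 (adjusted p = 0.00487).

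The NRF2 list, with regulators of the antioxidant response and targets other than the members, had 8 of 25 higher and 6 lower, and 12 of 26 higher and 7 lower without that library. MAFF, a small partner of NRF2, rose by 1.13 and 1.44. TKT, of the pentose phosphate pathway that supplies NADPH to GSR and TXNRD1, fell by 1.55 and 1.30. TALDO1, of the same pathway, fell by 1.86 and 1.20. NQO2 changed by 0.11 (edgeR adjusted p = 0.916) and by 1.28 (adjusted p = 0.00015), and it stood at 2.78, 2.03 and 11.9 CPM in TOM-1 control replicates 1, 2 and 3. Members that this list's name would also cover went in both directions: TXNRD1 fell and SLC7A11 was higher by value, in the fit without that library.

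Among 24 tested ferroptosis genes 4 rose and 7 fell, and 7 of 25 rose and 9 fell without that library. SCD, the stearoyl-CoA desaturase, fell by 3.43 and 3.69, from 109.9 and 106 CPM in TOM-1 control replicates 1 and 2 to 7.92, 9.58 and 7.55 CPM. DHCR7, of sterol synthesis, fell by 1.98 and 2.00. SAT1, which acetylates polyamines, changed by 0.41 (edgeR adjusted p = 0.176) and 0.75 (adjusted p = 1.91e-05), and the ferritin heavy chain FTH1 by 0.25 (adjusted p = 0.446) and 0.65 (adjusted p = 6.62e-07). FTH1 shares 62.4% of its exonic bases with BEST1 on the opposite strand and has processed copies in the genome.

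GPX4 and TXNRD1 are selenoproteins, and of 22 tested genes of the selenocysteine machinery and other selenoproteins 4 rose and 5 fell, and 10 rose and 6 fell without that library. SEPSECS, which makes selenocysteine on its tRNA, rose by 1.71 and 1.20, a call lost without any 1 of the treated TOM-1 libraries (edgeR adjusted p 0.0642 to 0.0762). SECISBP2L, a binder of the selenocysteine insertion element, rose by 1.26 and 0.93. The selenoprotein GPX1 fell by 1.50 and 0.72, and the selenoprotein MSRB1 fell by 1.29 and 0.89. GPX1 was at 423 and 419 CPM in TOM-1 control replicates 1 and 2, at 1325 in replicate 3 and at 232 to 268 CPM when treated. GPX4 and GPX1, both selenoprotein transcripts high in that library, went in opposite directions without it.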

How the data were processed

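The authors deposited 1 table of raw counts per Ensembl gene for 12 libraries, not normalized. Per the submitters' processing notes STAR, SAMtools, featureCounts and hg38 were used; versions, annotation release and the use of strand are not given in the sources used here. Columns were matched to samples by the column name in each sample's description. Symbols (60463 matched) came from a table of Ensembl names, and positions and exonic lengths from GENCODE release 29 on GRCh38.

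Counts were tested in R 4.3.3 with edgeR 4.0.16 (filterByExpr, TMM, glmQLFit with 1 mean per group, glmQLFTest, Benjamini-Hochberg over 17349 genes, threshold 0.05), and again without TOM-1 control replicate 3 (18321 genes). SE is the log2 change divided by the square root of F. CPM is TMM-scaled, and TPM was computed from union exon lengths. The tests were tested on simulated data. Floors cover counting error only: the reads carry no molecular identifiers, so several may stem from 1 molecule. No pair of replicates agreed within sampling noise (chi-square per degree of freedom at least 4.85).

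The members, the lists and the rule for named genes were chosen with earlier results of these data known. The rule named the members, CBSL, SLC3A2, and of each list the 2 genes per direction with the largest TOM-1 change without TOM-1 control replicate 3, past the threshold and with a mean of at least 5 CPM; for CHAC1 and SLC7A11, the 5 genes of highest Pearson's r (log2 CPM, prior count 2). A set of 6 marker lists was used to check the labelled cell type. Alternatives were DESeq2 1.42.0 (size factors in edgeR, and its Wald test), limma 3.58.1 voom with sample quality weights, no filter, the replicate block, the 6 libraries of a comparison alone, and each library left out.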

Additional observations from a re-analysis of the deposited data

Results flagged for a closer look

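The change under ADI-PEG20 differed between TOM-1 and RS4;11, by the edgeR test of the difference over all 12 libraries, for 15 of the named pathway genes. CHAC1 had a log2 change 1.42 higher in TOM-1, a value only, since its changes in both lines were known when it was picked. Genes with a higher effect in TOM-1 were GOT1 (2.16), TXNIP (1.89), MAFF (1.36), KYAT3 (1.22), SLC3A2 (1.16) and GSTM4 (0.91). Those with a lower effect in TOM-1 were SCD (-3.32), GSTP1 (-2.06), SLC25A39 (-1.96), PRDX4 (-1.94), TXN (-1.85), DHCR7 (-1.81), TALDO1 (-1.74), AHCY (-1.59) and TKT (-1.39). Except SLC3A2, the pathway genes were named for a large change in TOM-1, so these differences describe how they came to be listed and are no independent test. Without TOM-1 control replicate 3 the 15 differences still passed and kept their direction, at 1.54 for SLC3A2 and -1.36 for GSTP1. With 1 other library left out, the difference missed the threshold in 9 fits each for SLC3A2 and MAFF and in 8 each for GSTM4 and TALDO1, with edgeR adjusted p up to 0.104.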

How the results depend on the processing

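The counts of members here include SLC7A11 and CHAC1 and support nothing about them. Except for the fit without TOM-1 control replicate 3, the share of all genes called in the alternative fits is not given. The counts alone therefore say nothing about the pathway either. Without that library the share over all genes rose from 31.9% to 41.6% in TOM-1 and from 11.9% to 30.4% for the difference. The counts of members depended on TOM-1 control replicate 3 and on how libraries were weighted. With voom quality weights 7 members passed in TOM-1 and 6 for the difference between the lines, where 77 other pathway genes also did. For that difference 2 members passed with no filter and 2 with DESeq2. Fits on the 6 libraries of a comparison gave 42 other pathway genes in TOM-1 and 2 members between the control cultures. Leaving out each library in turn gave 3 to 6 members in TOM-1, 1 to 6 for the difference, 0 to 1 in RS4;11, 2 to 4 between the controls and 4 to 8 under ADI-PEG20. Of the other pathway genes, 54 to 95 then passed in TOM-1 and 26 to 75 for the difference, and 0 in RS4;11.

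Some directions turned. With voom weights the values that turned were, in TOM-1, 0.35 for GPX4; in RS4;11, -0.0018 for TXNRD1; for the difference, 0.039 for CTH and 0.48 for GPX4; and between the controls, -0.070 for GSS, -0.40 for CTH, -0.10 for GPX4 and 0.12 for TXNRD1. When libraries were left out one by one, the TOM-1 change ran from -0.75 to 0.38 for GPX4, from -0.039 to 0.67 for MSRB2 and from -0.32 to 1.28 for NQO2. In RS4;11 it ran from -0.13 to 0.089 for GCLC, -0.048 to 0.073 for GSS, -0.11 to 0.044 for GSR, -0.039 to 0.11 for GCLM and -0.051 to 0.074 for TXNRD1. The difference between lines ran from -0.72 to 0.14 for CTH and -0.61 to 0.51 for GPX4. Between the controls the values ran from -0.041 to 0.20 for GCLM, -0.082 to 0.26 for GSS, -0.50 to 0.29 for CTH, -0.14 to 0.91 for GPX4 and -0.37 to 0.16 for TXNRD1. The cause of these changes was not tested.

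Same-numbered libraries had deviations correlated at -0.06 to -0.01 in TOM-1 and at 0.03 to 0.14 in RS4;11. Differently numbered ones ran from -0.05 to 0.07 in TOM-1 and from -0.10 to 0.06 in RS4;11. The replicate numbers thus showed at most a weak pairing in RS4;11, highest for replicate 3. In TOM-1 the departing control replicate 3 entered the group mean, and so the deviations of every TOM-1 control. The TOM-1 values therefore cannot decide whether its libraries were paired. With the replicate block 5 members passed in TOM-1 (GCLM added), 1 for the difference, 0 in RS4;11, 4 between the controls and 5 under ADI-PEG20 (GSS lost). Of the other pathway genes it left 69 in TOM-1, 35 for the difference and 0 in RS4;11. The members with the fewest reads were CTH, at 45 to 124 counts a library, and CBS, at 6 or fewer.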
